A study of Mus musculus with 6 samples.

Results

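Wild-type cells of 4T-1, a line of breast cancer cells from a mouse mammary carcinoma, were profiled by RNA sequencing without treatment. They were chosen by the genotype label, which gives 3 libraries (replicates 1 to 3) of the 6 in the study. The other libraries came from untreated 4T-1 cells with a Lyplal1 knockout and are not compared here. The labels tag these libraries NC without saying what it stands for and name no transgene, selection marker or clone for the wild-type cells. They also do not say whether the 3 libraries came from separate cultures, so the spread between them may be technical. Total counts were 17108975, 17048072 and 17007616.

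The mammary gland holds a bilayer of milk-producing luminal cells, marked by simple-epithelial keratins and E-cadherin, and contractile basal cells, marked by stratified-epithelial keratins, smooth muscle actin and p63. Carcinoma cells can keep these programmes, and some also transcribe genes of mesenchymal cells such as vimentin and fibronectin. The title of the series concerns removal of palmitate from cGAS, a sensor of cytosolic DNA that signals through the adaptor STING, the kinase TBK1 and the factor IRF3 to interferon genes. The levels below show which of these programmes the untreated wild-type cells transcribe.

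Levels are TPM, read counts divided by gene length and scaled to a total of 1000000 in every library, which puts the genes of a library on a common scale. The order of genes depends on the length used. Without length, 7 of the 32 gene families described below changed their leading member. A gene was counted as expressed at a mean of 1 TPM or more. Among 21974 protein-coding genes, 11094 reached that level, 50.5% of them, and 9.81% reached 100 TPM. No count in any library was found for 7470, or 34% of protein-coding genes, and the median protein-coding gene stood at 1.18 TPM. Each gene list below was drawn up for a function in a known pathway, with earlier results of these data known. Its share is therefore set beside 50.5% only as a reference level. Values with an error are means with the SD of the 3 libraries.

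The most abundant nuclear-encoded messages of these cells were for a secreted lectin, the translation machinery and the cytoskeleton. Lgals1, which encodes the galactose-binding lectin galectin-1, ranked 1st of all genes with 22652, 22663 and 23718 TPM in replicates 1 to 3. It stood above the cytochrome oxidase gene mt-Co1 at 18819 ± 589 TPM in every library, though 63.9% of mt-Co1 and none of Lgals1 is shared with other annotated genes, so this order is uncertain. Lgals1 alone held 2.30 ± 0.0613% of all TPM. Next among nuclear genes came Eef2, an elongation factor of translation, at 9571 ± 231 TPM, the chaperone Hsp90ab1 at 7458 ± 125 TPM and the linker histone H1f0 at 6030 ± 118 TPM. Ribosomal and elongation proteins followed with Rplp1 at 5956 ± 228 TPM, Eef1a1 at 5699 ± 116 TPM and Rpl4 at 4000 ± 105 TPM. The tubulin Tubb5 reached 4804 ± 38.4 TPM and the actin Actb 3651 ± 48.8 TPM. The orders of Rplp1 and Eef1a1 and of Aldoa (3654 ± 27.6 TPM) and Actb are not settled, since these pairs overlap between libraries, and 75.1% and 74.8% of the main transcripts of Rplp1 and Eef1a1 occur in other annotated genes.

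The keratin Krt18 ranked 13th, the class I light chain B2m 18th, the calcium-binding S100a6 22nd, Vim 23rd and the secreted phosphoprotein Spp1 25th of all genes. The 100 most abundant genes held 24.6%, 24.58% and 24.7% of TPM in the 3 libraries, and the 1000 most abundant held 53.3 ± 0.148%. Measured by counts without length, the 100 genes with most counts held 16.2% of all counts. Levels of 1000 TPM or more were reached by 67 protein-coding genes, 0.305% of them.

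**Figure D1:**
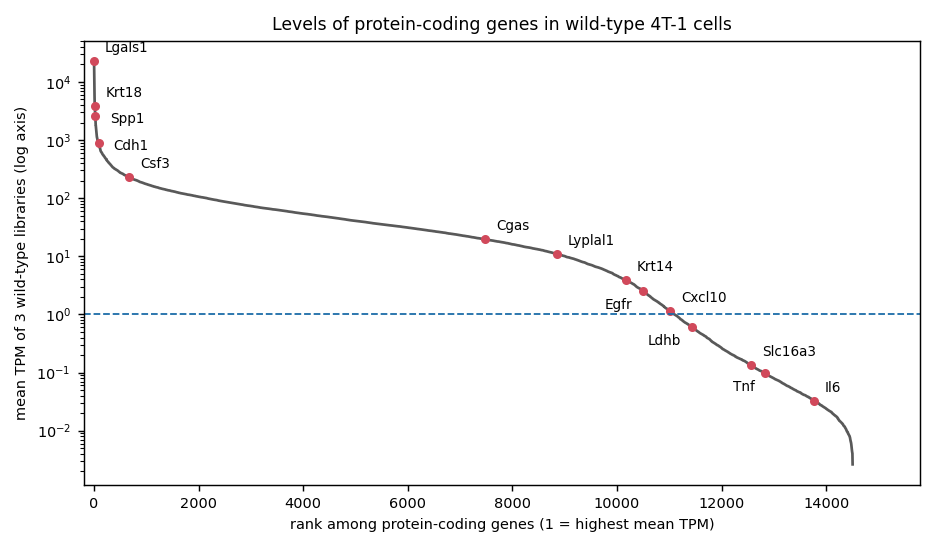
Mean TPM (log axis) against rank for all protein-coding genes with a count in wild-type cells. Named genes are red points, and the dashed line marks 1 TPM. Lgals1 stands at the top, Cgas and Lyplal1 lie on the slope between 10 and 100 TPM, and Tnf and Il6 lie below 1 TPM.

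Simple-epithelial keratins and E-cadherin led the luminal list. Of 29 luminal genes, 22 were expressed, with a list median of 23.7 TPM. Krt18, a simple-epithelial keratin, had 3790, 3953 and 3951 TPM in replicates 1 to 3. Its usual partner Krt8 had 858, 849 and 860 TPM. Krt19 stood at 935 ± 15.6 TPM, E-cadherin (Cdh1) at 881 ± 3.74 TPM and Krt7 at 485 ± 10.9 TPM. The surface adhesion protein Epcam had 174 ± 3.69 TPM and Gata3, the factor that maintains luminal identity, 142 ± 2.41 TPM. Among these, Krt19, Cdh1 and Krt8 held different levels in that order, with no overlap between their libraries. The place of Krt8 is uncertain, since 36% of its main transcript occurs in other annotated genes.

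Other regulators on the luminal list ranged from 83 TPM to no count. Tfap2a stood at 83, Esrp2 at 37.7, Elf3 at 32.4, Esrp1 at 23.7 and Grhl2 at 18.2 TPM. Ovol1, Ovol2 and Tfap2c had 5.31, 3.91 and 2.16 TPM. Foxa1, a pioneer factor for hormone receptors, had 85, 82 and 95 counts and 6.26 ± 0.471 TPM. Elf5, the factor of milk-forming alveolar cells, had 1 count over all 3 libraries. Ehf and Spdef, epithelial factors of the same ETS family that were picked after their values were seen, had none. Of 8 milk protein genes only Btn1a1 at 10.8 ± 0.78 TPM, Csn3 at 6.9 ± 0.644 TPM and Xdh at 4.16 ± 0.196 TPM reached 1 TPM. The casein Csn2 had 1 count and the whey protein Wap none.

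Basal genes were few. Of 22 basal genes 8 were expressed, 36.4% of the list, and the median was 0.237 TPM. The 4 defining markers were low: Krt14 had 30, 32 and 24 counts (3.89 ± 0.575 TPM), Acta2 had 3, 1 and 1 counts, Trp63 had 2, 3 and 2 counts, and Krt5 had 1, 0 and 0 counts. The members that stood high were outside these defining markers. They were the protein C receptor Procr at 160 ± 5.25 TPM, the integrins Itga6 at 146 ± 1.93 TPM and Itgb4 at 133 TPM, and the factor Sox9 at 123 ± 5.49 TPM. Within the type II keratins, Krt8 held 62.5 ± 0.314% and Krt7 35.4 ± 0.389% of the summed TPM. By counts scaled to a common total without length, Krt7 led these keratins with 64.8%. In the type I keratins Krt18 held 80.4 ± 0.5% and Krt19 19.3 ± 0.511%.

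Krt8 and Krt5 lie on chromosome 15, 101996698 to 102004482 for Krt8 (GRCm38, minus strand), and encode type II keratins with opposite levels in these cells. Their promoters, 250 bases before to 50 after the start, are shown because CpG number went with level across genes (given at the end), and the pair does not differ in it. Capitals mark each CpG. The sequences are RefSeq's on GRCm38.p6, written 5′ to 3′, for chr15:102004293-102004592 and chr15:101712856-101713155, both on the minus strand. This pair and the pairs shown further on were picked after their levels were seen.
Krt8: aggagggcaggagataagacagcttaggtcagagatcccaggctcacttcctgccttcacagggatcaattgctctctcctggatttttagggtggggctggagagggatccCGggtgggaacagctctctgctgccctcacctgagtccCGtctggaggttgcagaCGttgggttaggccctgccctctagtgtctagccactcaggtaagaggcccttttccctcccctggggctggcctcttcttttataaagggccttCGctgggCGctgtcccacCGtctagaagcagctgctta
Krt5: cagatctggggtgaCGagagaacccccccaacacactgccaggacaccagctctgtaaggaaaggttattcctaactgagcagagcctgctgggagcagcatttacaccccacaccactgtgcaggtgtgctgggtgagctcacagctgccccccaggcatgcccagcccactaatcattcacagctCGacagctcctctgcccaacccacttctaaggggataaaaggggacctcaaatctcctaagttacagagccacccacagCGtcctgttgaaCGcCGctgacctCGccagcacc
Each window holds 6 CpG, and GC content is 58% and 57.7%. Krt8 has TATAAA on either strand and Krt5 does not, where 13.7% of all windows have it.

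Mesenchymal genes were transcribed beside the luminal set. Each library pools the RNA of many cells, so whether the same cells transcribe both sets was not tested. Of 22 such genes, 17 were expressed, with a median of 81.4 TPM. The intermediate filament Vim had 2904, 2855 and 2901 TPM. Fibronectin (Fn1) had 1772, 1798 and 1769 TPM, and the receptor kinase Axl had 1132, 1109 and 1124 TPM. Each of these exceeded Cdh1 in every library. The matricellular genes Ccn1 and Sparc stood at 816 and 364 TPM.

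The repressors of E-cadherin split by member. Twist1, a basic helix-loop-helix factor, had 759, 786 and 723 counts (111 ± 4.97 TPM), and the zinc-finger factor Snai1 had 619, 627 and 605 counts (90.8 ± 1.91 TPM). Zeb2 stood at 10.9 ± 0.57 TPM. Zeb1 had 1, 5 and 2 counts (0.0621 TPM), and Snai2 had none, which allows up to 0.118 TPM over the 3 libraries. N-cadherin (Cdh2) also had no count, which allows 0.0295 TPM. Such limits take 3 counts in all 3 libraries and cover counting error only. By share of the family of 6 repressors, Twist1 held 51.2 ± 0.498% and Snai1 42 ± 0.617%. By CPM, which scales counts to a common total without length, Zeb2 led with 39.3%.

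**Figure D2:**
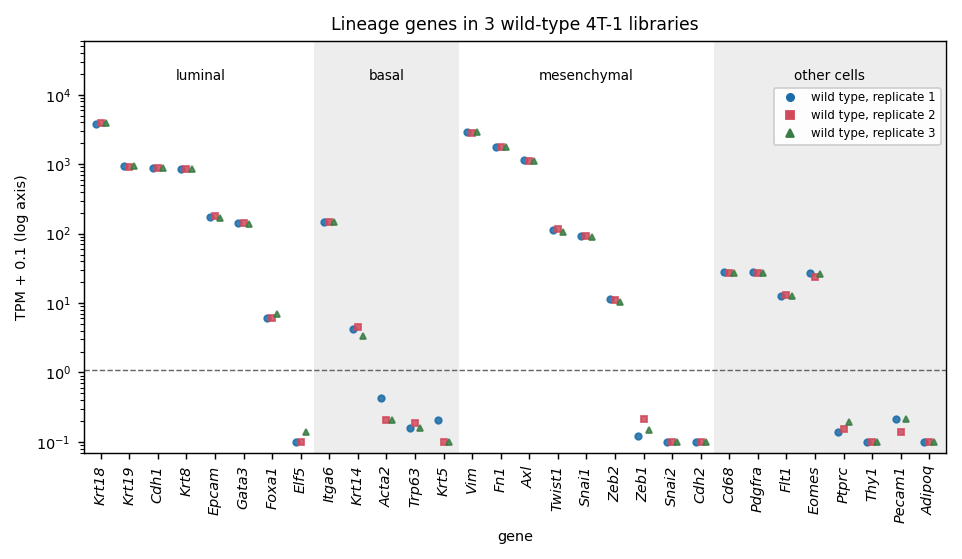
TPM + 0.1 (log axis) of lineage genes in each wild-type library, with 1 TPM dashed. Most luminal and mesenchymal genes shown share the upper part of the axis. The luminal Elf5 and the mesenchymal Zeb1, Snai2 and Cdh2 lie near 0, as do the basal markers Acta2, Trp63 and Krt5. Of the markers of other cells, 4 lie between 10 and 30 TPM.

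Markers of other cell types were mostly at or near 0. Of 24 hematopoietic genes 1 was expressed, Cd68, a lysosomal glycoprotein, at 28.3, 27.4 and 26.9 TPM. The defining Ptprc had 3, 4 and 7 counts, Lyz2 had 1, 0 and 0, and Tyrobp had none. The list summed to 28.8, 29.1 and 28.3 TPM in the 3 libraries, so nearly all of it was Cd68. Of 13 fibroblast and pericyte genes 2 were expressed, the receptor kinase Pdgfra at 27.5 ± 0.688 TPM and the collagen chain Col1a1 at 2.38 ± 0.193 TPM, and Thy1 had no count. Of 10 endothelial genes 1 was expressed, Flt1, a receptor for VEGF, at 12.8 ± 0.32 TPM, while Pecam1 had 3, 1 and 3 counts and Cdh5 had 1, 0 and 0. None of 9 adipocyte genes was expressed, and Adipoq and Plin1 had no count.

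Among 34 markers of lineages outside the breast, 3 were expressed. Eomes, a T-box factor of early mesoderm, trophoblast and lymphocytes, had 466, 414 and 449 counts (25.4 ± 1.46 TPM). Msx3, a homeobox gene best known from the dorsal neural tube, had 148, 159 and 158 counts (15.7 ± 0.634 TPM), and the epidermal keratin Krt10 had 5.38 ± 0.0493 TPM. Eomes shares exon positions with the transcript Gm33460, and reads of the pair cannot be told apart without strand, which is not given in the sources used here. Of 7 sex chromosome genes only Ddx3x was expressed, at 249.5 TPM. Xist, the RNA that silences 1 X chromosome of female cells, had 2, 2 and 1 counts, and Ddx3y had none. On the Y chromosome 1 of 175 protein-coding genes was expressed, Gm47283 at 7.92 TPM, and 173 had no count. Whether the reads of Gm47283 come from a Y chromosome was not tested. Genes with much shared sequence mostly lack counts, as given further on, so missing counts alone do not show that a gene is silent.

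E-cadherin and its catenins led the junction genes. Of 34 cadherin and junction genes 26 were expressed, with a median of 61.2 TPM. Cdh1 held 99.3 ± 0.0511% of the TPM of 7 classical cadherins, and P-cadherin (Cdh3) held 0.667 ± 0.0582%. The catenins that tie cadherins to actin were high, with Ctnnb1 at 667 ± 12.3 TPM and Ctnna1 at 429.5 TPM. Plakoglobin (Jup) stood at 258 TPM, the desmosomal Perp at 429.5 TPM and the gap junction protein Gja1 at 148 ± 3.2 TPM.

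Claudins form the paracellular seal of tight junctions, and a single member carried most of the family. Cldn4 had 4645, 4689 and 4644 counts and 610, 618 and 609 TPM, which was 82 ± 0.366% of the TPM of 14 claudins. Cldn12 held 11.5 ± 0.272%. Cldn7 had 7.43 ± 1.45 TPM, and Cldn3, which lies close to Cldn4 on chromosome 5 and shares its role as a receptor of a bacterial toxin, had 1, 0 and 1 counts. The Cldn4 gene runs from 134945119 to 134946934 on the minus strand and Cldn3 from 134986214 to 134987472 on the plus strand. Their promoters, shown because the neighbours differ in level and not in CpG number, are RefSeq's for chr5:134946885-134947184 (minus strand) and chr5:134985964-134986263 (plus strand), GRCm38.p6, with each CpG in capitals.
Cldn4: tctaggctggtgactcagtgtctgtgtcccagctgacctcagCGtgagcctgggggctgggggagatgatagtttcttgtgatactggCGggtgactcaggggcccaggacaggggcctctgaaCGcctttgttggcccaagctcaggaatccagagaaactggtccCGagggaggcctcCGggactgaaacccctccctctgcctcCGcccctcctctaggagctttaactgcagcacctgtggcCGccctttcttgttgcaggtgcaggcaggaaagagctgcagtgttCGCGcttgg
Cldn3: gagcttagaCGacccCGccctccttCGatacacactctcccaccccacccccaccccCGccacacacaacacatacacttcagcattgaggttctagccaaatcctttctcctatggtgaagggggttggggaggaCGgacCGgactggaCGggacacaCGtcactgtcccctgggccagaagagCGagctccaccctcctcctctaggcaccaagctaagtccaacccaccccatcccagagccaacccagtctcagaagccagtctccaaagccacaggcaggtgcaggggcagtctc
Each window holds 9 CpG, with GC content of 61% and 60.7%. Both have the GC box GGGCGG on either strand, which is in 47.1% of all windows, and neither has TATAAA.

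Of 37 integrin and hyaluronan adhesion genes, 27 were expressed. The laminin receptor subunits led them. Itga3 had 1989, 1976 and 1981 TPM, and its partner Itgb1 had 1568, 1590 and 1613 TPM, with no overlap between the genes. Itgb1 held 82.3 ± 0.154% of the TPM of 8 integrin beta chains. The tetraspanins Cd9 and Cd151, which bind such integrins, stood at 703 and 334 TPM. The hyaluronan receptor Cd44 had 326 ± 3.31 TPM. Vcam1, a ligand for leukocyte integrins, had 49.2 ± 0.575 TPM, and Icam1, with the same role, 1.68 ± 0.339 TPM.

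Fibronectin and laminin chains led the matrix genes. Of 39, 25 were expressed, with a median of 20.2 TPM, and Fn1 was the highest. Laminin chains were high, with Lama5 at 636 ± 10.5 TPM and Lamb1 at 574 ± 6.41 TPM. Collagen IV genes held most of the TPM of 11 collagen chains of types I to VI, Col4a1 42.1 ± 0.139% and Col4a2 32.8 ± 0.0908%. Col6a1 followed with 186 TPM. Among fibrillar chains Col5a1 had 98.7 TPM, while Col1a1 had 65, 60 and 71 counts. Col4a1 and Col4a2 share exon positions, so part of their split is uncertain.

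Of 34 proteases and inhibitors, 28 were expressed, with a median of 89.5 TPM. The inhibitor Timp2 stood at 726 ± 14.5 TPM and Timp1 at 167.5 ± 7.01 TPM, and Timp3 had 1 count. Lysosomal cathepsins were abundant, with Ctsz at 639 TPM, Ctsl at 614 TPM and Ctsd at 307 TPM. Urokinase (Plau) had 158 ± 2.42 TPM, the membrane protease Mmp14 141 ± 7.11 TPM and the gelatinase Mmp9 44.5 ± 2.82 TPM.

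Cytokine genes ranged from no count to over 1000 TPM. Of 32 cytokine and acute phase genes 16 were expressed (50%), with a median of 1.3 TPM. Spp1, osteopontin, had 2541, 2616 and 2547 TPM and ranked 25th. Csf3, which drives neutrophil production, had 1370, 1326 and 1400 counts and 231, 225 and 236 TPM. The epithelial cytokine Tslp had 192 ± 3.2 TPM, the macrophage growth factor Csf1 129 ± 1.87 TPM, and the siderophore-binding Lcn2 98.9 ± 5.07 TPM. Csf2, the granulocyte-macrophage factor, had 14, 10 and 14 counts (3.78 ± 0.679 TPM). Il1a and Il1b stood at 5.88 ± 1.04 and 1.71 ± 0.0761 TPM. Tnf had 0, 2 and 0 counts, Il6 had 0, 0 and 1, and Ifnb1, interferon beta, had none, which allows up to 0.318 TPM. The level of Mif, 411 ± 8.63 TPM, is uncertain, since 87.4% of its main transcript occurs in other genes.

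The highest chemokines were Cxcl5 and Cxcl1, ligands of the neutrophil receptor CXCR2. Of 28 chemokines 9 were expressed, 32.1%, and the median was 0.113 TPM. Cxcl5 had 395, 377 and 382 TPM and Cxcl1 199, 202 and 212 TPM, while Cxcl2 of the same receptor had 9, 4 and 2 counts. The membrane-bound chemokines Cx3cl1 and Cxcl16 stood at 102 ± 4.29 and 27.2 ± 1.41 TPM, and Ccl20 at 15.8 ± 1.11 TPM. Ccl5, a T cell attractant, had 5.39 ± 0.889 TPM. Cxcl10, an interferon-induced T cell attractant, had 13, 12 and 7 counts and straddled the threshold at 1.38, 1.28 and 0.74 TPM, and its exons overlap those of Art3. The monocyte attractant Ccl2 had 4, 4 and 3 counts.

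Of 54 growth factor genes 32 were expressed, with a median of 4.79 TPM. The binding protein Igfbp4 led at 746 TPM. Vegfb held 66.2 ± 1.2% and Vegfa 24.6 ± 0.933% of the VEGF family, with Vegfa at 116 ± 2.41 TPM. The ligand Wnt7b had 248 ± 4.21 TPM. Ligands of the EGF receptor were present as Hbegf at 180 ± 3.97, Areg at 105 ± 7.95 and Tgfa at 90.2 TPM. Tgfb3 and Tgfb1 held 48.3 ± 1.65% and 42.3 ± 1.1% of the TGF-beta genes. Pthlh, the parathyroid hormone-related peptide known for its effect on bone, had 30.3 ± 0.802 TPM.

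Axl and ephrin receptors led the receptor kinases, and Egfr was low. Of 39 receptor tyrosine kinases 24 were expressed. After Axl, the ephrin receptor Epha2 had 424, 419 and 421.5 TPM, Ephb4 had 236 ± 2.16 TPM, and Met, the receptor of hepatocyte growth factor, had 113 ± 2.63 TPM. Among the 4 ErbB receptors, Erbb2 held 60 ± 0.318% with 68.9 ± 1.28 TPM, and Erbb3 held 37.8 ± 0.49% with 43.5 ± 1.58 TPM. Egfr, the receptor that Hbegf, Areg and Tgfa bind, had 111, 122 and 126 counts and 2.52 ± 0.164 TPM, or 2.2 ± 0.18% of the family. Erbb4 had no count, which allows up to 0.0193 TPM. Fgfr2 held 88 ± 0.983% of the FGF receptors.

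Steroid receptors were low. Of 29 hormone and nuclear receptors 18 were expressed, with a median of 15.1 TPM. Esr1, the oestrogen receptor, had 285, 333 and 355 counts and 4.97, 5.84 and 6.19 TPM. The progesterone receptor Pgr and the prolactin receptor Prlr had no count in any library, which allows up to 0.0279 and 0.0155 TPM. The glucocorticoid receptor Nr3c1 stood at 81.9 ± 1.12 TPM, and the retinoic acid receptors Rara and Rarg at 117 ± 2.57 and 110 ± 3.51 TPM, with no overlap between their libraries.

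Of 42 cytokine and growth inhibitor receptors, 31 were expressed, with a median of 27.5 TPM. Tnfrsf12a, the receptor of TWEAK, led at 529.5 ± 7.34 TPM. The TGF-beta receptors Tgfbr2 and Tgfbr1 had 113 ± 1.74 and 52.3 TPM. All 4 chains of the type I and type II interferon receptors were expressed, Ifngr1 at 57.3 TPM, Ifnar1 at 47.4 TPM, Ifngr2 at 45.1 TPM and Ifnar2 at 33.5 TPM. The chemokine receptor Cxcr4 had no count, which allows up to 0.132 TPM, while Ackr3, the other receptor of its ligand, had 122 ± 4.79 TPM.

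The DNA-sensing chain was transcribed at middle levels. Of 30 DNA-sensing genes 25 were expressed, and the median was 32 TPM. Cgas, the sensor itself (chromosome 9, 78430526 to 78443237, minus strand), had 326, 360 and 331 counts and 18.8, 20.9 and 19.1 TPM, which placed it 7694th of all genes. Tmem173, the release's symbol for STING, had 37.6, 36.4 and 34.5 TPM and exceeded Cgas in every library. The kinase Tbk1 stood at 52.3 ± 2.65 TPM and the factor Irf3 at 65.3 ± 2.48 TPM, so that the chain rose in level from sensor to factor. Irf3 shares exon positions with Bcl2l12. Irf7, an interferon-induced relative, had 2.65 ± 0.436 TPM. Enpp1, which degrades the messenger made by cGAS, had 1.12, 0.957 and 0.812 TPM. The other genes below the threshold were Zbp1, Usp18, Aim2 and Trex1. Trex1, the main cytosolic DNA exonuclease, is listed with no count, and 97.4% of its main transcript also occurs in another annotated gene, so its level is not known from these values.

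Of 19 RNA-sensing genes 16 were expressed, with a median of 23.7 TPM. The adaptor Mavs had 82.9 ± 2.72 TPM. The sensor Ddx58 (RIG-I) had 30.6 ± 1.18 TPM, and Ifih1 (MDA5) had 119, 136 and 138 counts (3.83 ± 0.307 TPM). The kinase Eif2ak2 and the editing enzyme Adar stood at 41.2 and 39.5 TPM. Oas2, Tlr7 and Tlr8 were below 1 TPM.

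The receptors Tlr2 and Tlr4 and the pore proteins Gsdmd and Mlkl were expressed, while Nlrp3, Pycard and Casp1 were near 0. Of 34 such genes 21 were expressed, with a median of 6.2 TPM. Tlr2, Tlr4 and their adaptor Myd88 had 26.4 ± 0.751, 24.3 ± 1.82 and 25.5 ± 2.07 TPM, and their libraries overlapped. The inflammasome sensor Nlrp3 had 9, 4 and 4 counts, its adaptor Pycard 3, 4 and 3, and Casp1, the protease they activate, none. Gsdmd, the pore protein that Casp1 cleaves, had 32.2 ± 0.34 TPM. In necroptosis the same split held, with the pore protein Mlkl at 132, 143 and 141 TPM and its kinase Ripk3 at 0, 1 and 0 counts. Casp8, an apical caspase, had 71.4 ± 1.92 TPM.

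Interferon signalling and target genes numbered 24 expressed of 32, with a median of 9.06 TPM. The kinase Jak1 stood at 140 ± 1.8 TPM, while the factors were lower, Stat2 at 22.2 ± 0.778 and Irf9 at 9.69 ± 0.836 TPM. Targets ran from Ifitm3, an antiviral membrane protein, at 297, 309 and 314 TPM and Bst2 at 106 ± 8.45 TPM to Isg15 at 9.39 ± 0.218 TPM. Ifit1 had 3, 6 and 8 counts and Mx1 had 0, 0 and 1.

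**Figure D3:**
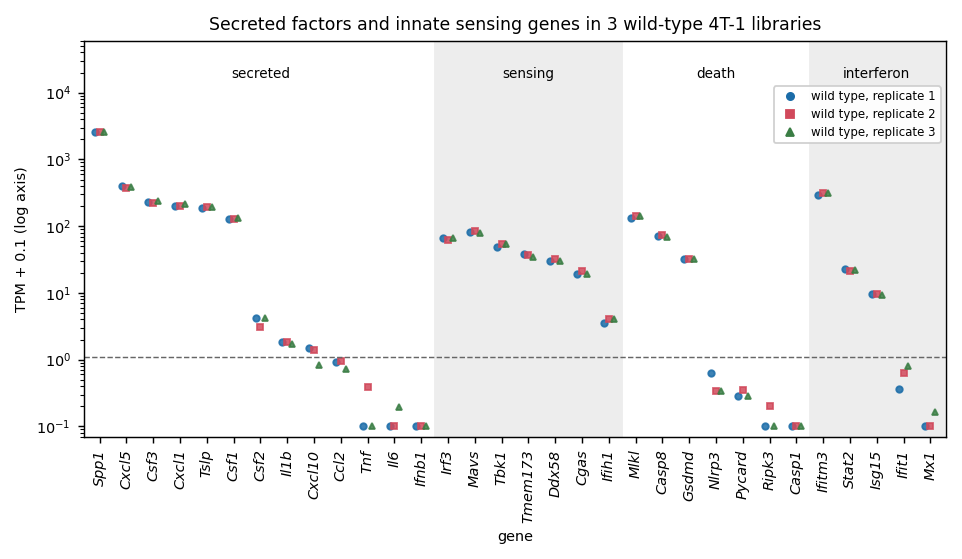
TPM + 0.1 (log axis) of secreted factors, nucleic acid sensing, death and interferon genes in each wild-type library, with 1 TPM dashed. Spp1 stands highest, the sensing genes lie between 3 and 90 TPM, and Il6, Ifnb1, Casp1, Ripk3 and Mx1 lie near 0.

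B2m and the class I heavy chains were abundant, while the transporter and regulator of this pathway stood at middle levels. Of 44 presentation and recognition genes 31 were expressed, with a median of 21.6 TPM. B2m had 3415, 3414 and 3469 TPM, the class I heavy chains H2-D1 and H2-K1 had 848 ± 2.55 and 458 ± 12.1 TPM, the peptide transporter Tap1 had 25.6 ± 0.688 TPM and the class I regulator Nlrc5 19.9 ± 0.629 TPM. Class I heavy chains resemble each other, and 27.7% of the H2-D1 transcript occurs in other genes. Among surface regulators of immune cells, the phagocytosis inhibitor Cd47 and the adenosine-forming Nt5e stood at 139 ± 2.86 and 128 ± 2.61 TPM. Cd274 (PD-L1) had 21, 21 and 18 counts (1.32 ± 0.117 TPM).

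Lyplal1, the gene whose knockout the study made, was a minor member of its class. It lies on chromosome 1, 186087731 to 186117310, and had 11.5, 11.1 and 10.3 TPM, ranking 9225th. Its relatives Lypla2 and Lypla1, acyl-protein thioesterases that remove palmitate, had 137 ± 4.68 and 22.1 ± 1.08 TPM, both above Lyplal1 in every library. Of 33 thioesterases and palmitoyltransferases 27 were expressed, with a median of 37.9 TPM. In the family of 6 thioesterases Abhd17a held 32.3 ± 0.987% and Lypla2 29.2 ± 0.622%, and Abhd17b led by CPM with 26%. The palmitoyltransferase Zdhhc5 had 125 ± 4.21 TPM.

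Glycolysis genes were abundant, and several steps rested on 1 isoform. Of 42 glycolysis genes 29 were expressed, with a median of 43.1 TPM. The transporter Slc2a1 held 99.7 ± 0.0727% of 4 glucose transporters, with 293, 281 and 299 TPM. Hexokinase was shared between Hk1 (56.8 ± 0.405%) and Hk2 (43.2 ± 0.414%). Aldoa held 98.2 ± 0.0633% of the aldolases. Pkm stood at 1976 ± 53 TPM and Tpi1 at 1028 TPM. Gapdh, often taken as a high constant gene, is listed at only 37.6 ± 1.42 TPM, and 84.1% of its main transcript occurs in other annotated genes. Eno1, with 77.2% of its main transcript shared, had 260 ± 14.7 TPM beside Eno3 at 315 ± 0.158 TPM, and with CPM the order of these enolases turned, with Eno1 at 58.3%.

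The highest leading shares of the 32 families were in lactate handling. Ldha, the subunit that favours lactate formation, had 1612, 1562 and 1658 TPM, and Ldhb, which favours pyruvate, had 5, 4 and 3 counts (0.608 ± 0.152 TPM). Ldha held 99.96 ± 0.0119% of the 3 lactate dehydrogenase genes. Among lactate transporters Slc16a1 (chromosome 3, 104638668 to 104658462) had 2956, 3040 and 2892 counts and 160 ± 4.5 TPM, and Slc16a3, the form known from glycolytic and hypoxic cells, had 3, 2 and 4 counts. Their promoters, shown because both are rich in CpG while 1 of the genes is nearly silent, are RefSeq's for chr3:104638414-104638713 and chr11:120948817-120949116, both on the plus strand of GRCm38.p6, with each CpG in capitals.
Slc16a1: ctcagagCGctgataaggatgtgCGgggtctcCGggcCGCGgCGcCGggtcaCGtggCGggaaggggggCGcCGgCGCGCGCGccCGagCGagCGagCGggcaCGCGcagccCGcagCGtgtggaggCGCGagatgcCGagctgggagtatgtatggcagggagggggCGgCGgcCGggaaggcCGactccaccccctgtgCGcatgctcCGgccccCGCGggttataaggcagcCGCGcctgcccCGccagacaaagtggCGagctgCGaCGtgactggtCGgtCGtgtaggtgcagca
Slc16a3: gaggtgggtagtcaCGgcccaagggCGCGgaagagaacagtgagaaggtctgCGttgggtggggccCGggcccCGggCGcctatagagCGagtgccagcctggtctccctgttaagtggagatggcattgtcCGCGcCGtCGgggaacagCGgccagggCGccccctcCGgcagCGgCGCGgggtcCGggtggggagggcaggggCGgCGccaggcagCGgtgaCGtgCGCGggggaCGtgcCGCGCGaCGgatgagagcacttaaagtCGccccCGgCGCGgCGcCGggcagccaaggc
The windows hold 42 and 36 CpG, with GC content of 73.7% and 73.3%. Both have GGGCGG, and both have ACGTG, the core of the hypoxia element, on either strand, which is in 20.7% of all windows. ACGTG itself holds a CpG, and its share was 13.4% for genes with no count and 29.55% from 100 TPM. Its share among windows equally rich in CpG was not computed.

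Genes known to respond to low oxygen were transcribed without a stated hypoxic treatment. Of 14, 13 were expressed, with a median of 131 TPM. Car9, a carbonic anhydrase of hypoxic tumours, had 644, 640 and 650 TPM, Ndrg1 had 804 ± 8.47 TPM, and the oxygen sensor Egln3 had 409 TPM. Hif1a had 311 ± 14.7 TPM, and Epas1, its relative HIF-2alpha, was the member with no count, which allows up to 0.0426 TPM.

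Mitochondrial and biosynthetic lists were nearly complete. Of 36 tricarboxylic acid cycle and mitochondrial genes 31 were expressed, with a median of 107 TPM, among them Idh2 at 352 ± 2.75 and Cs at 313 ± 0.95 TPM. The other 5 were Pck1, Fbp1, Ppargc1a, Cpt1b and Cpt1c, genes of glucose production, mitochondrial biogenesis and fatty acid import. Glul, which makes glutamine, stood at 62.4 ± 0.721 TPM. All 28 amino acid, folate and nucleotide genes were expressed, led by the transporter Slc7a5 at 722 ± 19 TPM and the serine enzyme Psat1 at 557 ± 3.44 TPM. All 29 redox and iron genes were expressed, and Fth1, ferritin heavy chain, had 1845 ± 27.5 TPM. The light chain Ftl1 is listed at 11, 4.83 and 6.57 TPM, and 94.9% of its main transcript is shared with other genes.

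Of 33 lipid synthesis genes 30 were expressed, with a median of 59.7 TPM, and the exceptions were Abca1, Cd36 and Fabp4, which serve lipid transport. Scd2, a desaturase, had 1737, 1720 and 1701 TPM and held 92 ± 0.188% of its family, and Scd1 had 146 ± 3.74 TPM. Fatty acid synthase (Fasn) stood at 262 ± 3.68 TPM.

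Growth genes were expressed almost throughout. All 20 proliferation genes were expressed, with a median of 204 TPM. Top2a had 631 ± 12.6 TPM and Mki67 573, 594 and 504 TPM, lowest in replicate 3. Of 41 oncogenes and suppressors 38 were expressed. Ccnd1, which drives entry into S phase, had 806, 781 and 820 TPM and held 85.2 ± 0.177% of the D cyclins, and Myc had 772, 767 and 762 TPM. The DNA repair gene Brca1 had 46.2 ± 1.78 TPM. The tumour suppressor Trp53 had 78.8 ± 2.44 TPM, and its target Cdkn1a 22.8 ± 0.308 TPM.

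The 3 members with no count were Mycn, Cdkn2a and Cdkn2b. Cdkn2a and Cdkn2b encode inhibitors of the cyclin D kinases and lie side by side on chromosome 4, with Cdkn2a at 89274471 to 89294653. Their neighbours, examined after these values were seen, were mixed. Mtap, next to Cdkn2a at 89137122 to 89181081, had 12247, 12298 and 12454 counts and 912 TPM. On the other side Dmrta1, Elavl2, Izumo3 and Tusc1 had no count, Zfp352 had 2 counts and Gm12666 58 counts in all, and Caap1 at 94500081 had 14.5 TPM. RNA counts do not say whether the DNA is present, and this was not tested.

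**Figure D4:**
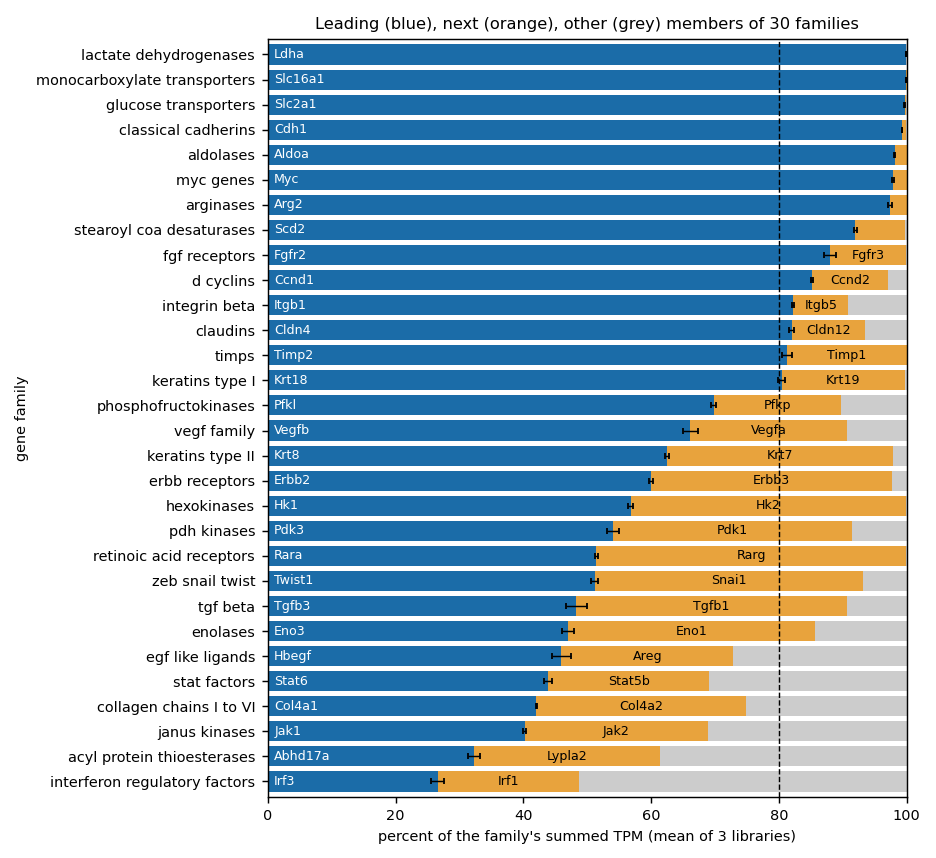
Percent of the summed TPM held, in 30 of the 32 gene families, by the leading member (blue, with SD of 3 libraries), the next (orange) and the others (grey). The dashed line marks 80%, and 14 families have a leading member at or past it, from Krt18 at 80.4% to Ldha at 99.96%.

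In 14 of 32 families 1 member held 80% or more of the TPM, as the plot of family shares shows. The other families spread over several members, and the most even were the interferon regulatory factors, with Irf3 at 26.6 ± 1.01%, and the thioesterases. Among Janus kinases Jak1 held 40.2 ± 0.264%, and among STAT factors Stat6 held 43.9 ± 0.586%.

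Position along the body axis is recorded in cells by Hox genes, which were looked at after the values had been seen. Of 11 genes in the Hoxa cluster 9 were expressed, led by Hoxa5 at 346 TPM, Hoxa6 at 72.3 TPM and Hoxa2 at 47.7 TPM. None of the 10 Hoxb, 9 Hoxc and 9 Hoxd genes was expressed. The Hoxb genes had no count at all, while Hoxc6 and Hoxd8 reached 0.925 and 0.928 TPM. In other factor families seen in the same way, Irx2 had 251 TPM, Sox4 561 TPM (54.7% of its exonic sequence shared), Cebpb 468 TPM and Klf6 338 TPM.

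Across genes, promoter composition went with level. The 13819 protein-coding genes with a single promoter in RefSeq's table were grouped by mean TPM. At least 10 CpG in the 300 bases were held by 20.7% of windows of genes with no count, 39.5% below 1 TPM, 71.9% from 1 to 10 TPM, 91.6% from 10 to 100 TPM and 93.75% from 100 TPM. In all windows the share was 57.6%. Turned round, 77.4% of CpG-rich and 13.5% of CpG-poor genes were expressed. TATAAA on either strand fell from 24.2% to 7.24% between the lowest and the highest class. Genes are not independent replicates, and this is a description. Neither of the keratin and claudin pairs reaches 10 CpG, so the high Krt8 and Cldn4 lie with the minority of abundant genes whose promoters are CpG-poor.

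**Figure D5:**
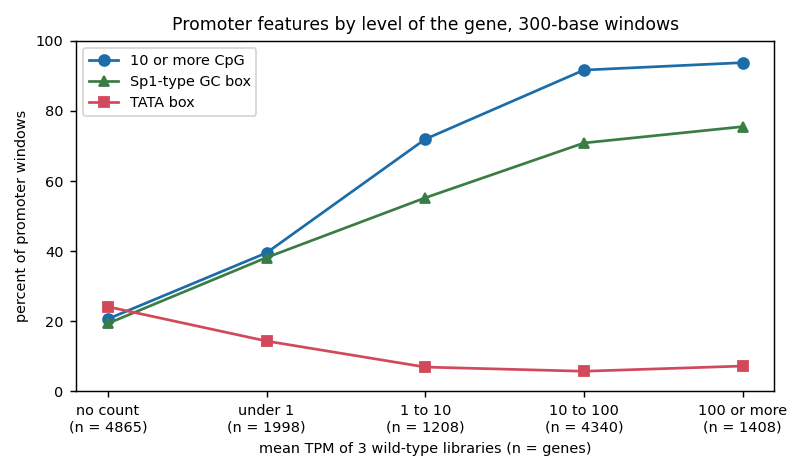
Percent of 300-base promoter windows with 10 or more CpG, a GC box or a TATA box, by mean TPM class of the gene in wild-type cells. The CpG share rises from 20.7% to 93.75% and the TATA share lies between 5.76% and 24.2%.

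Lack of counts went with shared sequence, so a gene listed with no count need not be silent. Among protein-coding genes with under 10% of their exonic 31-base words in another gene, 27.5% had no count, and among those with 90% or more it was 92.7% (938 of 1012). The mitochondrial genome shows the same in part. mt-Co1, mt-Nd1 and mt-Cytb rank in the top 5, although 63.9% of mt-Co1 is shared. mt-Co2, mt-Atp6, mt-Co3, mt-Nd3 and mt-Nd4l have no count and are 98.1% to 100% shared. mt-Atp8, which overlaps mt-Atp6, has no count either, though only 7.5% of it is shared. How the authors treated reads of shared sequence is not given in the sources used here, and the cause of the missing counts was not tested.

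The 3 libraries differed little. The highest library exceeded the lowest by more than 1.5-fold for 3 of 9821 genes with at least 100 counts in each, 0.0305% of them. These were the pseudogene Gm10033 (343, 297 and 202 counts), the antiviral Samd9l (190, 178 and 125 counts) and the transport adaptor Bicd1 (199, 150 and 132 counts). Cep290 (468, 488 and 328 counts), Zfp51 and Zfp518a followed at 1.49, 1.48 and 1.45-fold. In all 6 replicate 3 was the lowest library. Without replicate 1 or without replicate 3 no gene passed 1.5-fold, and from 20 counts in every library 218 genes did. The coefficient of variation common to 12471 genes was 2.36%. Differences between libraries exceeded counting noise, with chi-square values per gene of 1.44, 1.81 and 1.95 for the pairs, and they were counted as 3 samples.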

How the data were processed

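RNA was measured in 3 wild-type 4T-1 libraries, made from Trizol total RNA with a DNBseq kit, per the labels' protocols. For each of 55487 genes the authors deposited an integer read count and a TPM value. STAR 2.7.8a and featureCounts 2.0.1 are named in the submitters' processing notes, as is build GRCm38. Annotation, strand setting and treatment of multi-mapping reads are not given in those sources. All 12 single-library files equalled the whole-series tables. The deposited TPM were within 1% of counts over GENCODE M21 exon length, rescaled, for 98.73% of 17493 genes, and 55227 identifiers matched that release.

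Levels are means ± SD (n = 3) of TPM, with no test, since there is 1 group. Members and lists were chosen with earlier results of these data known, and 943 of 945 listed symbols matched in 34 lists. Named genes are the 20 highest protein-coding genes, the key and 6 highest members of each list, the top 2 of each family, the 6 with the widest spread and every expressed marker of other cells; others are examples chosen after their values were seen. A few of the genes selected this way are not reported here. Spread came from edgeR 4.0.16 in R 4.3.3 (TMM, intercept only), tried on simulated data. Shared sequence is the percent of 31-base words found in another annotated gene. Other tools were Python 3.11.15, pandas 2.3.3, NumPy 2.4.6 and matplotlib 3.10.9.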

Additional observations from a re-analysis of the deposited data

How the results depend on the processing

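No paired analysis was possible because the description covers 1 group, so the replicate numbers pair nothing. The number of expressed protein-coding genes was 10642 to 11557 over all alternatives, and each of the 34 list counts stayed within 1.5 times its value. The 100 most abundant genes held 19.4% of TPM without mitochondrially encoded and cytosolic ribosomal protein genes and 16.21% by counts, against 24.63%, and 24.59 to 24.65% without 1 library. Genes past 1.5-fold between libraries numbered 218 from 20 counts, 4 with upper-quartile factors, and 0 to 3 without 1 library. By CPM 10 families in place of 14 had a member at 80%, and 7 of 32 changed their leading member, those of Krt8, Tgfb3, Irf3, Eno3, Pdk3, Abhd17a and Twist1. Levels below 1 TPM rest on few counts, and levels of genes with shared sequence are uncertain.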
